A study of Rattus norvegicus with 23 samples.

Results

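Acta2, Myh11 and Tagln are 3 genes of the contractile machinery of smooth muscle, the tissue that forms the middle layer of a vein wall. They were taken by identifier, with no rule on measured values but with earlier results of these data known. ENSRNOG00000058039 (Acta2), ENSRNOG00000057880 (Myh11) and ENSRNOG00000017628 (Tagln) are 3 of the 32545 gene identifiers in the count table, and all 3 passed the filter on low counts in every fit. Their levels are described in 23 libraries from adult female rats of genotype WT. In the repaired rats a piece of the median nerve was missing over 8 mm, and nerve tissue was taken 3 or 7 days after the repair. The repaired groups were MIV at day 3, EV at day 3, MIV at day 7 and EV at day 7 (n = 3 each). MIV is a muscle-in-vein graft of 10 mm, a vein filled with skeletal muscle. The labels of the EV libraries name repair after the cut without MIV and do not spell out the abbreviation. Untreated day 0 tissues were epigastric vein (n = 3), median nerve (n = 5) and adductor muscle (n = 3). Neither the number of animals nor how much of the conduit wall went into a repaired sample is stated, so the p-values reflect only how far these samples scatter, which may be technical.

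Smooth muscle cells of a vessel wall contract when myosin pulls on actin filaments. Acta2 encodes smooth muscle alpha-actin, Myh11 encodes the smooth muscle myosin heavy chain, and Tagln encodes transgelin (SM22 alpha), a protein of the calponin family that binds actin filaments. Myh11 is known as a marker of differentiated smooth muscle. Acta2 and Tagln are also made by pericytes and by myofibroblasts, the contractile fibroblasts of healing wounds. In peripheral nerve the vessels that supply the fascicles carry such cells. The transcription of smooth muscle contractile genes is known to depend on serum response factor and its partner myocardin, which act through a promoter element called the CArG box.

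The Acta2 promoter is shown because CArG boxes are the element for which these genes are best known. In the RefSeq annotation of rat build GRCr8 it lies on the minus strand at chr1:241172454-241172753, from 250 bases before to 50 bases after the start of the gene. Capitals mark, in order from the 5′ end, an MCAT motif and both CArG boxes.
Acta2: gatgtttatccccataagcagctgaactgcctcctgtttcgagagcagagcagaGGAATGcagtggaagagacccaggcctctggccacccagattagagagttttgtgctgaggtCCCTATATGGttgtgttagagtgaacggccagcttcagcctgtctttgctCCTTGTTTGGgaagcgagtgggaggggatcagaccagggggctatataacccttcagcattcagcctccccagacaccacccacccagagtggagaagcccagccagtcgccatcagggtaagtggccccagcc
CArG boxes were searched by name in their usual form, with an A/T core of 6 bases, and with at most 1 other base in that core. The pattern reads the same on both strands. Both boxes of Acta2 carry 1 base other than A or T, and they lie 134 to 125 and 84 to 75 bases before the start. At least 1 such box was present in 9.42% of the 33469 promoters of this length, at least 2 in 0.846%, and a box with a pure A/T core in 1.64%. The MCAT motif (CATTCC, searched on both strands, here on the strand opposite to the printed one and overlapping no box) was present in 14.2% of promoters. These matches describe letters in this window and not bound sites. Of the 3 genes, Acta2 had a promoter entry.

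Library totals ran from 12504035 to 17314324 counts. Levels are given as CPM, the count of a gene relative to the library total after scaling with TMM factors, which correct for a few abundant genes taking much of a library. The factors were 0.410 to 0.421 in healthy muscle and 1.03 to 1.24 in the other libraries. Other cell types could not be followed by named markers, because the reference table paired 0 of the identifiers with symbols and 0 of the 9 marker lists had a measured member. In their place stand genes that were more than 1 log2 unit higher in a healthy tissue than in both others (edgeR, adjusted p under 0.05). All 3 genes fell among the 1127 vein-enriched genes of this kind, out of 15954 genes tested. The other 1124 vein-enriched genes took 15.02% to 16.6% of counts in healthy vein and 3.30% to 3.90% in healthy nerve. The set was chosen as high in these same vein libraries, so this is a description and no check of their labels. No replicate pair held identical values or differed by as little as sampling noise.

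Healthy vein carried by far the most of each gene. Acta2, the actin, stood at 3751, 3352 and 2684 CPM in the vein libraries and at 121 to 159 CPM, with a median of 145, in the 5 nerve libraries. It was 22.96-fold higher in vein than in nerve (log2 fold change 4.52 ± 0.41 SE, edgeR adjusted p = 6.33e-08). In muscle it stood at 66.0, 60.4 and 49.2 CPM, lower than in nerve (log2 fold change -1.28 ± 0.41 SE, edgeR adjusted p = 0.0105), where 35.8% of genes were called lower. That call was lost with TMM factors from genes that are not muscle-enriched (-0.93, edgeR adjusted p = 0.0514). All vein libraries lay far above every nerve and muscle library, and the share of all genes that do so was not counted.

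Myh11, the myosin heavy chain, had the widest gap between vein and nerve. It stood at 9587, 9092 and 4879 CPM in vein and at 102 to 139 CPM, with a median of 119, in nerve. The difference was 64.6-fold (log2 fold change 6.01 ± 0.58 SE, edgeR adjusted p = 1.32e-07), rank 39 from the top of 15954 genes tested. In muscle the values were 119.5, 64.3 and 67.6 CPM, and muscle against nerve did not pass (log2 fold change -0.54 ± 0.53 SE, edgeR adjusted p = 0.381), except in a fit of the 2 groups alone (-0.51, adjusted p = 0.0459).

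Tagln, the actin-binding transgelin, had the smallest gap between vein and nerve of the 3. It stood at 5628, 5753 and 3200.5 CPM in vein and at 397 to 557 CPM, with a median of 488, in nerve, a 10.3-fold difference (log2 fold change 3.36 ± 0.46 SE, edgeR adjusted p = 9.10e-06). In muscle it stood at 64.0, 78.7 and 65.1 CPM, lower than in nerve (log2 fold change -2.77 ± 0.52 SE, edgeR adjusted p = 0.0001), where 35.8% of genes were called lower. All 3 genes were higher in vein than in nerve, where 18.9% of all genes tested were called higher, and higher in vein than in muscle (55.8-fold for Acta2, 93.7-fold for Myh11 and 70.2-fold for Tagln), where 33.4% were. The third vein library was the lowest for each gene. Muscle values of Acta2 may include reads of closely related actin paralogs, since the handling of shared reads is not given in the sources used here.

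**Figure D1:**
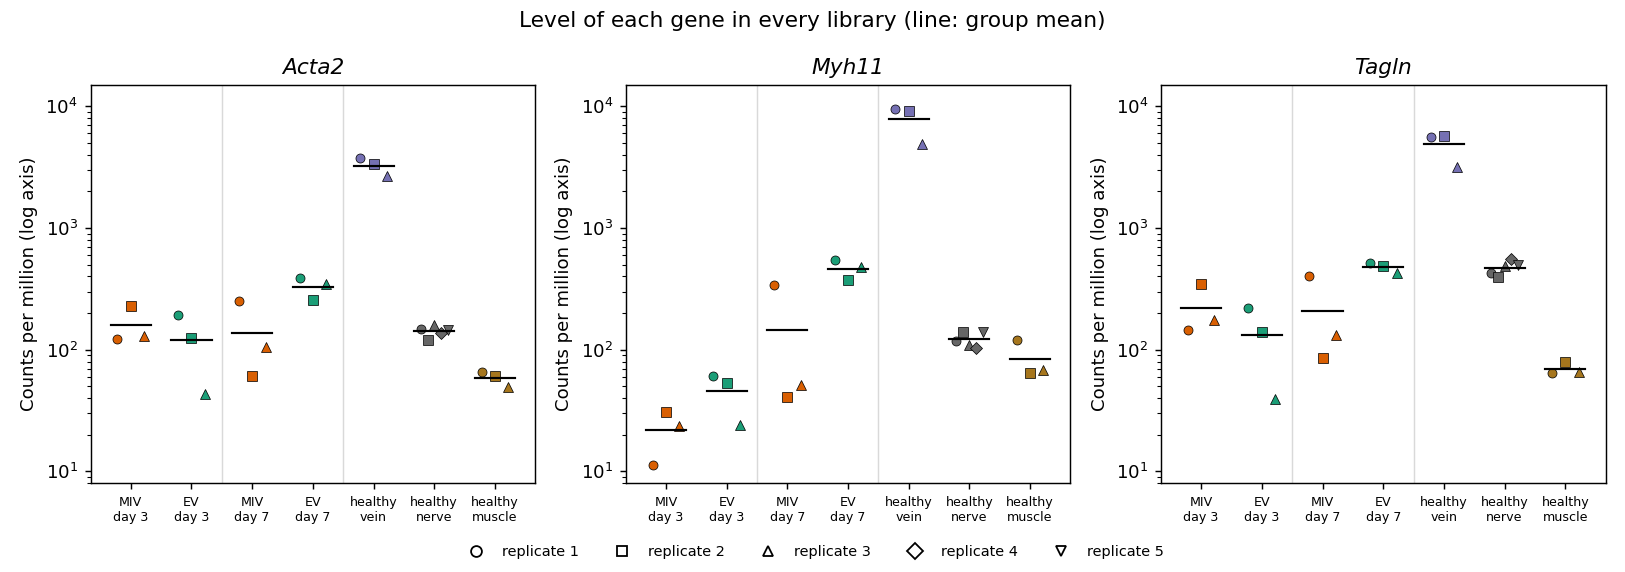
CPM (log axis) of Acta2, Myh11 and Tagln in all 23 libraries, by group, with the replicate number as marker shape and a line at the group mean. Healthy vein lies highest in each panel, EV at day 7 comes next, and in MIV at day 7 replicate 1 lies above replicates 2 and 3.

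After repair, the levels of all 3 genes were a small part of those in healthy vein at both days. In MIV at day 3, Acta2 averaged 159.8 CPM ± 58.5 and Tagln 221 ± 108 (SD, n = 3), 4.90% and 4.54% of the means in vein. Myh11 averaged 22.1 CPM ± 9.98 there (SD, n = 3), 0.281% of its mean in vein. In EV at day 3, Acta2 was at 3.70%, Tagln at 2.72% and Myh11 at 0.587% of the vein mean. The actin and transgelin were at a larger part of their vein level than the myosin was, in MIV and in EV.

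By day 7 the EV nerves were nearer to vein. Acta2 was at 10.1%, Tagln at 9.85% and Myh11 at 5.92% of the vein mean in EV, against 4.25%, 4.28% and 1.84% in MIV. The MIV values at day 7 rest largely on replicate 1, without which the log2 fold change against vein was -5.30 for Acta2, -7.41 for Myh11 and -5.48 for Tagln, against -4.56, -5.76 and -4.55 with it. Every repaired group was lower than vein for each of the 3 genes (edgeR adjusted p from 9.89e-08 to 0.000211). Among all genes tested, 25.8% were called lower than vein in MIV at day 3, 25.6% in EV at day 3, 20.4% in MIV at day 7 and 13.5% in EV at day 7. The largest difference was that of Myh11 in MIV at day 3, which was 356-fold lower (log2 fold change -8.48 ± 0.80 SE), rank 27 from the bottom of 15954 genes. The smallest was that of Acta2 in EV at day 7, 9.90-fold lower (log2 fold change -3.31 ± 0.48 SE).

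The other vein-enriched genes were also lower in the repaired nerves, by less. Their median log2 fold change against vein was -1.90 in MIV at day 3, -1.60 in EV at day 3, -1.40 in MIV at day 7 and -0.87 in EV at day 7, while the median over all genes lay between 0 and 0.08. They were picked as high in these same vein libraries, so their direction is not independent evidence. Of them, 1.25% to 2.85% had a lower fold change than Myh11 in the 4 comparisons, 5.25% to 17.3% a lower one than Acta2 and 5.34% to 16.2% a lower one than Tagln. The 4 comparisons share the vein libraries. In these tissue samples fewer smooth muscle cells and less RNA of a gene per cell cannot be told apart.

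Set against healthy nerve, the tissue that had been cut, the 3 genes took different positions. Myh11 fell at day 3 to 11.3, 31.05 and 23.8 CPM in MIV and to 60.8, 53.3 and 24.1 CPM in EV, and all 6 libraries lay below the lowest nerve library at 102 CPM. The myosin was 5.51-fold lower than nerve in MIV (log2 fold change -2.46 ± 0.58 SE, edgeR adjusted p = 0.00122) and 2.64-fold lower in EV (-1.40 ± 0.55, edgeR adjusted p = 0.0343). The EV call was lost without EV day 3 replicate 3 (-1.09, adjusted p = 0.146), without EV day 3 replicate 2 (-1.52, adjusted p = 0.0629) and without healthy nerve replicate 2 or 5 (-1.35 for both, adjusted p = 0.0544 and 0.0546), and also without the filter (adjusted p = 0.0548). At this day 30.6% of genes were called lower than nerve in MIV and 30.7% in EV. The share of all genes lying below every nerve library was not counted, so that separation is not read as particular to Myh11.

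Tagln at day 3 stood at 144, 344 and 174 CPM in MIV and at 218, 139 and 39.6 CPM in EV. All lay below the lowest nerve library at 397 CPM, again without a count over all genes. It fell 3.58-fold in EV (log2 fold change -1.84 ± 0.49 SE, edgeR adjusted p = 0.00333). In MIV the difference of -1.10 ± 0.47 did not pass (edgeR adjusted p = 0.0516), with adjusted p from 0.0207 to 0.186 when 1 library was left out. It passed with DESeq2 (adjusted p = 0.0240), RLE factors (adjusted p = 0.0496) and the 2 groups alone (adjusted p = 0.00581), and without EV day 3 replicate 1 or 3, MIV day 3 replicate 2 or any MIV day 7 replicate. Acta2 at day 3 stood at 123, 227 and 129 CPM in MIV and at 193, 126 and 43.4 CPM in EV, on both sides of the nerve values. Its log2 fold change against nerve was 0.17 ± 0.39 SE in MIV (95% interval of the fold 0.638 to 1.98) and -0.24 ± 0.39 in EV (0.479 to 1.51), and neither passed (edgeR adjusted p = 0.725 and 0.624).

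At day 7 the EV nerves held more of the actin and the myosin than healthy nerve. Acta2 stood at 387, 257 and 344 CPM in EV and was 2.32-fold higher than nerve (log2 fold change 1.21 ± 0.38 SE, edgeR adjusted p = 0.0137). The call was lost without EV day 7 replicate 1 (1.08, adjusted p = 0.0574). Myh11 stood at 543, 375 and 476 CPM and was 3.82-fold higher (1.93 ± 0.51, edgeR adjusted p = 0.00409). Tagln, at 520, 486 and 431 CPM, lay within the nerve range (0.02 ± 0.45, 95% interval of the fold 0.523 to 1.96, edgeR adjusted p = 0.982). Of all genes, 24.1% were called higher in EV at day 7 than in nerve.

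In MIV at day 7 the libraries of each gene spread widely. Acta2 stood at 249.8, 60.9 and 105 CPM, Myh11 at 340.5, 40.8 and 51.7 CPM and Tagln at 406, 85.8 and 132 CPM in replicates 1, 2 and 3. Replicate 1 was the highest for all 3 genes and lay above the nerve libraries for Acta2 and Myh11, whereas replicates 2 and 3 lay below them. Tagln was lower than nerve as a group (log2 fold change -1.19 ± 0.48 SE, edgeR adjusted p = 0.0422), where 25.4% of genes were called lower. The Tagln call was lost when any of 6 single libraries was left out, with values from -1.22 to -0.81: MIV day 7 replicate 2 (adjusted p = 0.185) or 3 (adjusted p = 0.157), or healthy nerve replicate 1, 3, 4 or 5 (adjusted p = 0.0516 to 0.0707). It was also lost without the filter (adjusted p = 0.0625), with a replicate block (adjusted p = 0.0667), with the 2 groups alone (adjusted p = 0.0643) and with TMM factors from genes that are not muscle-enriched (adjusted p = 0.0670). Acta2 (-0.04 ± 0.39, 95% interval of the fold 0.552 to 1.72) and Myh11 (0.25 ± 0.52, 0.562 to 2.51) did not pass (edgeR adjusted p = 0.944 and 0.704). Without MIV day 7 replicate 1, Myh11 turned to -1.39 and passed as lower than nerve (edgeR adjusted p = 0.00788).

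Healthy muscle held the lowest Acta2 and Tagln of the 7 groups, as group means, and its Myh11 lay above the day 3 values. Against muscle, Myh11 in MIV at day 3 was 3.80-fold lower (edgeR adjusted p = 0.00888), while Acta2 was 2.73-fold and Tagln 3.19-fold higher (edgeR adjusted p = 0.00815 and 0.00882). Of all genes, 33.5% were called higher and 33% lower in that comparison. The calls of Acta2 and Tagln were lost without MIV day 3 replicate 2 (adjusted p = 0.0506 and 0.0630). In MIV at day 7, Acta2 and Tagln were 2.37-fold and 3.00-fold higher than muscle (edgeR adjusted p = 0.0202 and 0.0123), beside 34.7% of all genes. Both of these calls were lost without MIV day 7 replicate 1 (log2 fold changes of 0.51 and 0.66, adjusted p = 0.292 and 0.231), and that of Acta2 also without healthy muscle replicate 3 (1.18, adjusted p = 0.0623). In EV at day 7 all 3 were higher than muscle (5.63-fold, 5.55-fold and 6.91-fold for Acta2, Myh11 and Tagln), where 36.6% of genes were. In EV at day 3 only Acta2 passed of the 3 (2.06-fold, edgeR adjusted p = 0.0454, beside 34.4% of all genes), and leaving out any of 13 single libraries ended that call, with log2 fold changes from 0.54 to 1.19. Tagln passed there without EV day 3 replicate 3 (1.37, adjusted p = 0.0163), and Myh11 passed as lower without MIV day 7 replicate 1 (-0.86, adjusted p = 0.0477). With TMM factors from genes that are not muscle-enriched, Acta2 did not pass against muscle in EV at day 3 (adjusted p = 0.144) or MIV at day 7 (adjusted p = 0.0507).

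Ordered by mean level, Acta2 ran from healthy vein through EV at day 7, MIV at day 3, healthy nerve, MIV at day 7 and EV at day 3 to healthy muscle. Only vein and EV at day 7 were separated from the next group without overlap of their libraries. For Myh11 the order was vein, EV at day 7, MIV at day 7, nerve, muscle, EV at day 3 and MIV at day 3, with no overlap between vein and EV at day 7, between EV and MIV at day 7, and between muscle and EV at day 3. For Tagln it was vein, EV at day 7, nerve, MIV at day 3, MIV at day 7, EV at day 3 and muscle, with no overlap between vein and EV at day 7 and between nerve and MIV at day 3. Of all genes, 11.7% lay lower in MIV than in EV at day 7 without overlap. For the other separations named here that share was not counted, so they are not read as particular to these genes. The gap of Myh11 between muscle and EV at day 3 depends on the TMM factors.

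Between day 3 and day 7 Myh11 rose in MIV and in EV. In EV it stood at 543, 375 and 476 CPM at day 7 and at 60.8, 53.3 and 24.1 CPM at day 3, a 10.2-fold rise (95% interval 2.98 to 34.6, log2 fold change 3.34 ± 0.80 SE, edgeR adjusted p = 0.0169). That value ranked 220 from the top of 15036 genes, of which 9.41% were called higher. Of the 1062 other vein-enriched genes measured, 24.7% were called higher in EV at day 7 (median log2 fold change 0.73), and 95.7% had a lower fold change than Myh11. The call did not hold without EV day 3 replicate 2 (3.46, adjusted p = 0.0612) or replicate 3 (3.03, adjusted p = 0.0639). Acta2 (1.46 ± 0.59, edgeR adjusted p = 0.107) and Tagln (1.86 ± 0.68, edgeR adjusted p = 0.0785) did not pass in EV, although for all 3 genes every day 7 library lay above every day 3 library, as for 22.5% of all genes. Both passed with DESeq2 (adjusted p = 0.0380 and 0.0156) and in an edgeR fit over all 23 libraries (adjusted p = 0.0205 and 0.0127), and Tagln also without MIV day 7 replicate 1 (adjusted p = 0.0447).

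In MIV, Myh11 was 6.68-fold higher at day 7 than at day 3 (95% interval 2.02 to 22.1, log2 fold change 2.74 ± 0.78 SE, edgeR adjusted p = 0.0395), beside 7.39% of all genes, and its day 7 libraries all lay above its day 3 libraries, as for 15.1% of all genes. Of the other vein-enriched genes 15.4% were called higher in MIV at day 7 (median log2 fold change 0.50), and 92.9% had a lower fold change than Myh11. The size rests on MIV day 7 replicate 1, without which it was 1.07 (adjusted p = 0.156). The call was also lost without any MIV day 3 replicate (2.42 without replicate 1, 3.07 without replicate 2 and 2.79 without replicate 3, adjusted p = 0.0901 to 0.126), and without EV day 3 replicate 2 or any EV day 7 replicate, where the value stayed at 2.74 (adjusted p = 0.0571 to 0.0584). It did not hold either without the filter on low counts (adjusted p = 0.0703), with a replicate block (2.23, adjusted p = 0.105) or in a fit of the 2 groups alone (adjusted p = 0.141). The actin and transgelin were not called between days in MIV. Their log2 fold changes were -0.18 ± 0.58 SE for Acta2 (95% interval of the fold 0.363 to 2.15) and -0.06 ± 0.66 for Tagln (0.349 to 2.63), and neither passed (edgeR adjusted p = 0.857 and 0.962).

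MIV and EV were compared because the study asks what muscle fibres do early in regeneration inside the graft. At day 3 the 3 genes pointed different ways and none passed. Myh11 stood at 11.3, 31.05 and 23.8 CPM in MIV and at 60.8, 53.3 and 24.1 CPM in EV (log2 fold change -1.07 ± 0.74 SE, 95% interval of the fold 0.153 to 1.49). Acta2 (0.40 ± 0.58, 0.541 to 3.21) and Tagln (0.73 ± 0.66, 0.601 to 4.59) had positive values, and the groups overlapped for all 3, while 7.17% of all genes lay higher and 4.05% lower in MIV without overlap. No gene of the 15036 was called at day 3 by edgeR (0%, adjusted p = 1 for the 3 genes), while 775 had an unadjusted p under 0.05 and DESeq2 called 251. Testing 15036 genes gives unadjusted p under 0.05 by chance alone, so nothing is read from the 775. EV day 3 replicate 3 was the lowest of its group for each gene, and without it the Acta2 value was -0.02.

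At day 7 all 3 genes lay lower in MIV, and every MIV library lay below every EV library for each. For Myh11 the MIV libraries held 340.5, 40.8 and 51.7 CPM and the EV libraries 543, 375 and 476 CPM (log2 fold change -1.67 ± 0.75 SE, 95% interval of the fold 0.0997 to 0.988). Acta2 differed by -1.24 ± 0.59 (0.172 to 1.04) and Tagln by -1.19 ± 0.67 (0.157 to 1.22). For Acta2 the groups were barely apart, with 249.8 CPM in the highest MIV library and 257 CPM in the lowest EV library. Of all genes, 11.7% lay lower in MIV without overlap. None of the 3 passed (edgeR adjusted p = 0.317 for Acta2, 0.294 for Myh11 and 0.379 for Tagln), and neither did any other gene by edgeR (0% called, with 2514 genes at an unadjusted p under 0.05 and 868 calls by DESeq2). Without MIV day 7 replicate 1 the differences were -1.998 for Acta2, -3.34 for Myh11 and -2.15 for Tagln, still with no call (edgeR adjusted p = 0.119, 0.0511 and 0.124), and 16 genes were called in all. Without MIV day 7 replicate 2 there were 688 calls, and without MIV day 3 replicate 1 there were 45.

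Same-numbered MIV and EV libraries deviated together at day 7 in every pair (r = 0.224, 0.201 and 0.176), and differently numbered ones had r from -0.153 to -0.0228. Deviations were taken from the group mean, so positive same-numbered values by themselves push the differently numbered ones to be negative. In other pairs of groups, however, differently numbered libraries reached r = 0.276, so these values do not establish that the samples were paired. As an alternative, the replicate number was also used as a block within the day. With this replicate block the day 7 differences were -1.48 ± 0.47 for Acta2, -2.41 ± 0.68 for Myh11 and -1.53 ± 0.61 for Tagln (SE, edgeR adjusted p = 0.267, 0.245 and 0.321), while 81 genes in all were called against 0 without the block. At day 3 the block within the day called 4 genes against 0.

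The shares of tissue-enriched genes at day 7 stand beside these values. The remaining vein-enriched genes took 5.04% to 7.74% of counts in MIV and 9.07% to 9.63% in EV, and over 1062 of them that were measured the median difference was -0.55 on the log2 scale, against 0.01 over all genes. Of these, 6.87% had a lower fold change than Myh11, 15.5% than Acta2 and 16.5% than Tagln. Muscle-enriched genes took 24.8%, 17.9% and 37.4% of counts in MIV replicates 1, 2 and 3, against 16.1% to 17.1% in EV. Nerve-enriched genes took 5.90%, 4.63% and 4.19% in MIV replicates 1, 2 and 3, against 5.73% to 5.92% in EV. MIV replicate 1, the highest for all 3 smooth muscle genes, also had the highest share of the other vein-enriched genes in its group (7.74%). The part of these shares in the differences was not tested.

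Over both days Myh11 differed between MIV and EV by -1.37 ± 0.53 on the log2 scale (95% interval of the fold 0.173 to 0.868), Acta2 by -0.42 ± 0.41 (0.398 to 1.40) and Tagln by -0.23 ± 0.47 (0.417 to 1.74). None passed (edgeR adjusted p = 0.260, 0.652 and 0.847), while 1.54% of all genes were called and 0.12% were called lower. Without MIV day 7 replicate 1 Myh11 passed as lower (-2.20, edgeR adjusted p = 0.0194). The change of the MIV effect between days was -1.64 ± 0.82 for Acta2, -0.60 ± 1.04 for Myh11 and -1.92 ± 0.94 for Tagln, with no call (edgeR adjusted p = 0.906, 0.942 and 0.906). With 1 library left out it ranged from -2.40 to -1.20 for Acta2, -2.27 to -0.16 for Myh11 and -2.88 to -1.45 for Tagln, lowest for all 3 without MIV day 7 replicate 1, and never passed. No gene was called for that change by edgeR (0%), and DESeq2 called 17. Of the 15036 tested, 796 had an unadjusted p under 0.05 by edgeR, a count from which nothing is read.

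**Figure D2:**
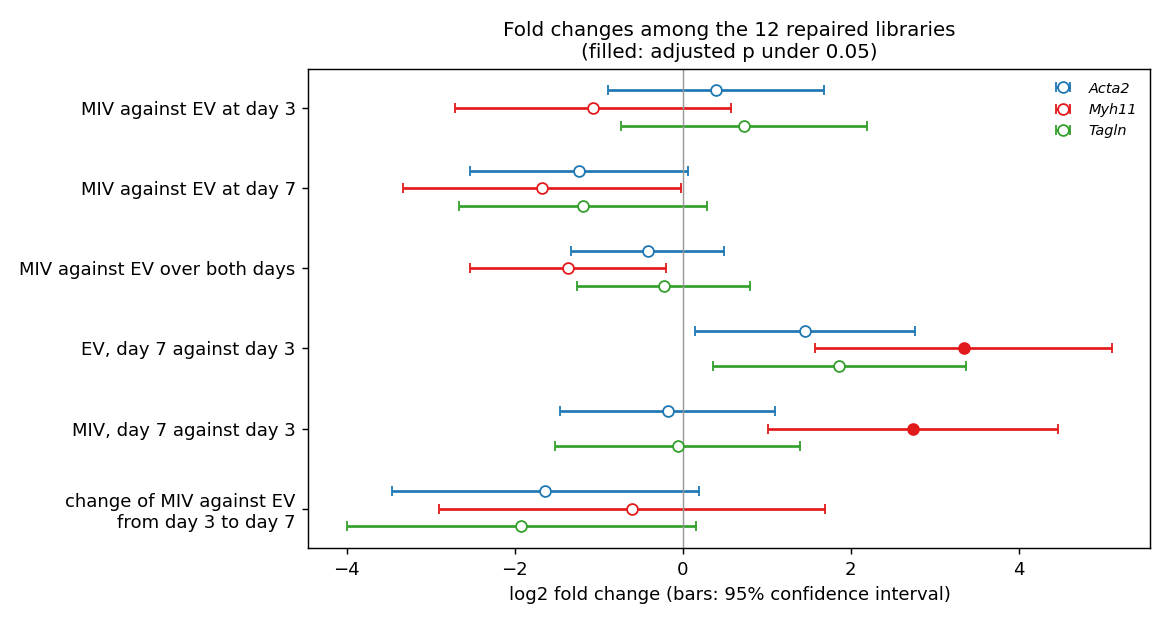
Log2 fold changes of Acta2, Myh11 and Tagln with 95% confidence intervals in 6 comparisons among the 12 repaired libraries, with filled points where the edgeR adjusted p was under 0.05. Myh11 from day 3 to day 7 is filled in EV (3.34) and in MIV (2.74), and no point of MIV against EV is filled.

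**Figure D3:**
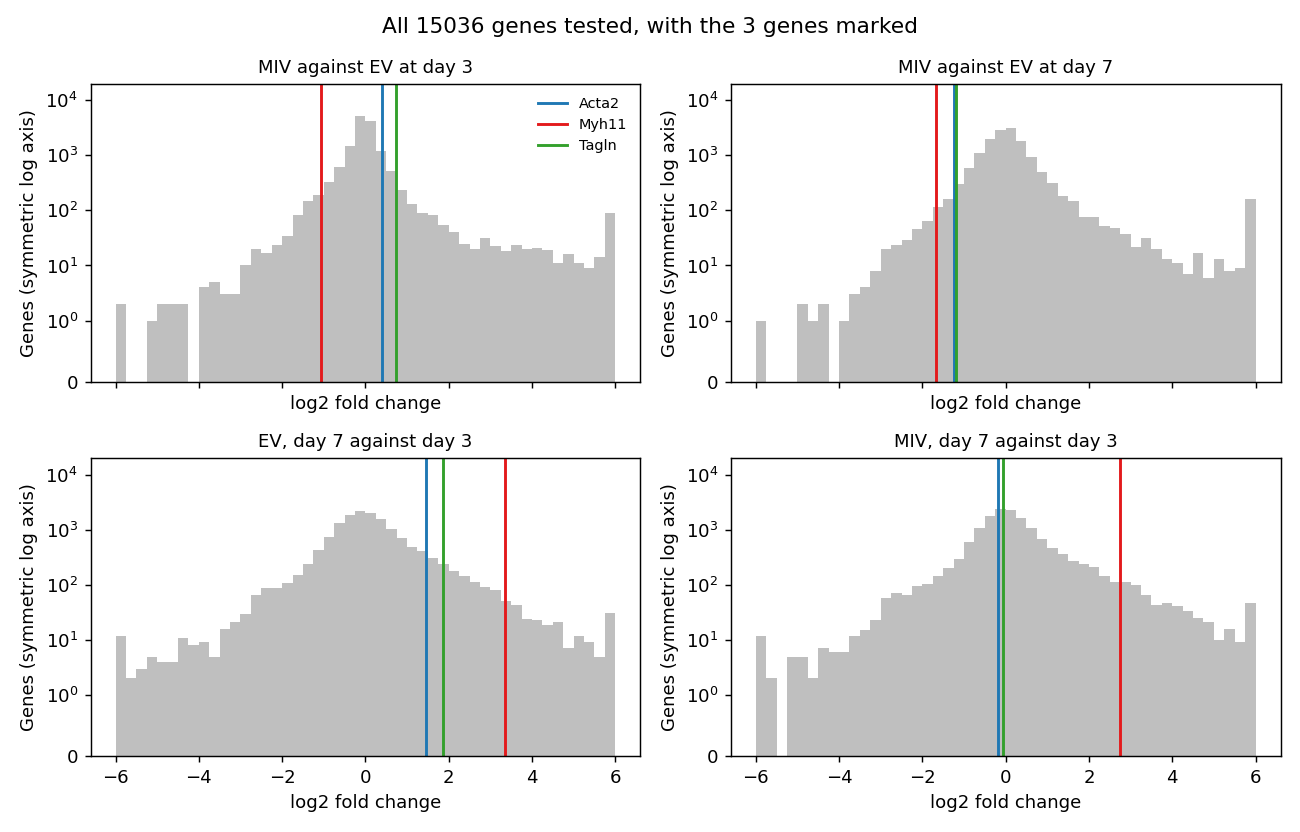
Number of genes (symmetric log axis) by log2 fold change for all 15036 genes tested, in bins of 0.25 with values beyond 6 in the end bins, and vertical lines at the 3 genes. At day 7 the 3 lines stand left of the bulk for MIV against EV (-1.67 to -1.19), and for EV from day 3 to day 7 they stand to the right (1.46 to 3.34).

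The genes were next set against each other within each library, since a ratio of counts in the same library does not depend on library size or scaling. Such a ratio also carries the transcripts' lengths, so it is read only between groups. Acta2 counts were 10.9, 7.32 and 5.41 times those of Myh11 in MIV at day 3, and 3.17, 2.36 and 1.80 times in EV at day 3. At day 7 the ratio was 0.734, 1.49 and 2.03 in MIV and 0.713, 0.685 and 0.723 in EV. Healthy vein had 0.391, 0.369 and 0.550, and healthy nerve had 0.873 to 1.45 with a median of 1.25. The actin was therefore most abundant relative to the myosin in MIV at day 3, whose libraries lay above all other 20, without a count over other gene pairs.

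The Acta2 to Myh11 ratio was higher in MIV than in EV in every library at each day (0.734 in the lowest MIV library against 0.723 in the highest EV library at day 7), by 1.67 on the log2 scale at day 3 and 0.88 at day 7. How many other gene pairs separate the groups in this way was not counted, so the separation is not read as particular to these genes. Each day alone has a two-sided exact permutation p of 0.1, the smallest that 3 against 3 libraries allow. Over both days the difference was 1.27 (exact permutation p = 0.005, the smallest possible with labels permuted freely within days). With day 7 labels swapped only within same-numbered pairs, an alternative chosen after seeing the data, the exact permutation p was 0.0125, the smallest that scheme allows. From day 3 to day 7 the ratio was lower in MIV and in EV, with log2 differences of -2.53 in MIV, -1.75 in EV and -2.14 over both (exact permutation p = 0.005). At day 3 it was above healthy nerve in MIV (2.69) and in EV (1.02), both with exact permutation p = 0.0179, the smallest possible for 3 against 5. None of the 54 ratio tests passed after Benjamini-Hochberg adjustment (smallest adjusted p = 0.0536, exact permutation tests), and 19 had an unadjusted p under 0.05. Those of 3 against 3 libraries could not have passed at any values, yet they count in the adjustment, so their failure to pass carries no information.

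Tagln against Myh11 was also highest in MIV at day 3. Both ratios divide by the same Myh11 counts, and Acta2 and Tagln had an r of 0.979 over the repaired libraries. This is therefore not separate evidence. On the log2 scale the ratio of Tagln to Acta2 is the difference between these ratios, so the ratio tests are not independent. The counts of Tagln were 12.7, 11.1 and 7.32 times those of Myh11 in MIV and 3.59, 2.61 and 1.65 times in EV at day 3. At day 7 they were 1.19, 2.10 and 2.55 times in MIV and 0.958, 1.29 and 0.905 times in EV, where the groups overlapped. The log2 difference of MIV and EV was 2.02 at day 3, 0.84 at day 7 (exact permutation p = 0.1 and 0.2) and 1.43 over both days (exact permutation p = 0.01, adjusted p = 0.0536, and 0.0125 with day 7 labels swapped within pairs). Healthy nerve held 2.87 to 5.44 times as many counts of Tagln as of Myh11, with a median of 3.58. Against nerve this ratio differed by 1.37 in MIV and -0.65 in EV at day 3 (log2, exact permutation p = 0.0179 and 0.125). At day 7 the differences were -1.07 in MIV and -1.91 in EV (exact permutation p = 0.0179 for each). In EV at day 3 the side was thus not that of Acta2 to Myh11.

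Tagln against Acta2 separated healthy nerve from every other group. The repaired libraries held 1.17 to 1.51 times as many counts of Tagln as of Acta2 in MIV at day 3, 0.914 to 1.13 in EV at day 3, 1.26 to 1.63 in MIV at day 7 and 1.25 to 1.89 in EV at day 7. The ratio was 1.5, 1.72 and 1.19 in vein and 2.87 to 4.07, with a median of 3.28, in nerve. All 4 repaired groups lay below nerve without overlap (log2 differences -1.31, -1.67, -1.22 and -1.18, exact permutation p = 0.0179 for each, adjusted p = 0.0536). The share of other gene pairs that separate nerve was not counted, so this is not read as particular to Tagln and Acta2. Against vein the log2 differences were -0.12, -0.47, -0.03 and 0.02 (exact permutation p = 0.6, 0.1, 0.9 and 1). The comparisons with nerve share its libraries, as do those with vein.

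**Figure D4:**
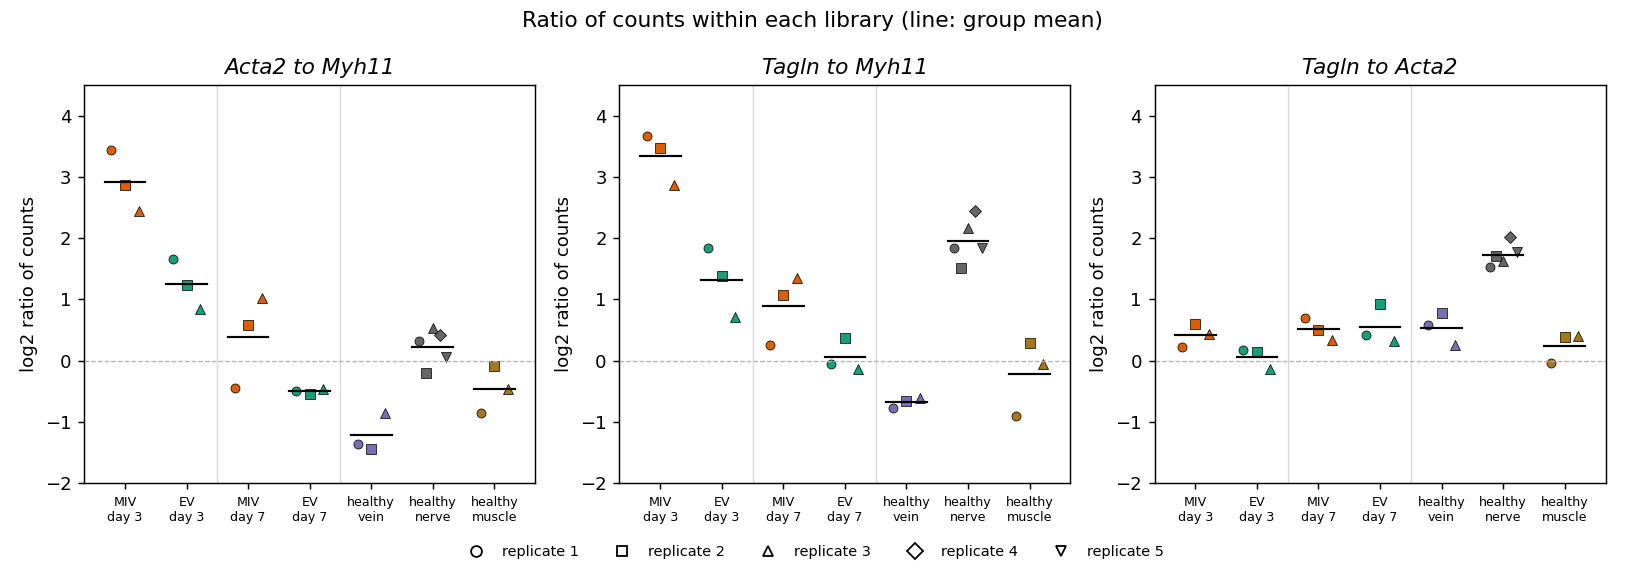
Log2 ratio of counts of Acta2 to Myh11, Tagln to Myh11 and Tagln to Acta2 in every library, by group, with a line at the group mean. The first and second ratio are highest in MIV at day 3 (means 2.92 and 3.34), and the last is highest in healthy nerve (mean 1.73).

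Across the 12 repaired libraries Acta2 and Tagln followed each other closely, with a Pearson r of 0.979 on log2 CPM. No other gene of 9948 with a mean of at least 10 CPM came nearer to either. Myh11 had an r of 0.744 with Acta2, and 986 genes had a higher r with it. Over all 23 libraries the r was 0.947 for Acta2 and Tagln, 0.897 for Acta2 and Myh11 and 0.870 for Tagln and Myh11, values that span the healthy tissues as well. The nearest genes of all were ENSRNOG00000002215 to Myh11 over 23 libraries (r = 0.983) and ENSRNOG00000051548 to Myh11 over the 12 repaired libraries (r = 0.982). Of the 100 genes nearest over 23 libraries, 88 for Acta2, 88 for Myh11 and 68 for Tagln were vein-enriched, against 6.45% of all genes compared. These libraries include the healthy vein libraries from which the vein-enriched set was picked, so nothing is read from the difference. Over the 12 repaired libraries these counts were 13, 36 and 14 of 100, against 6.47%. These correlations describe libraries that share groups and scaling.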

How the data were processed

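Poly-A selected, non-directional Illumina libraries were made from TRIzol RNA, per the labels' protocols, so strand is not known. In the annotation used here (GRCr8) 0 gene spans overlap any of the 3 genes. Within 2 kb lie Stambpl1 for Acta2, Nde1 for Myh11, and Pcsk7 and Sidt2 for Tagln. Whether reads of these neighbours entered the counts was not tested. CASAVA and HISAT2 were used, per the submitters' processing notes. Which counter, build and annotation followed is not given in the sources used here. The same holds for the handling of shared reads. The authors deposited raw counts per Ensembl gene identifier. All 23 columns matched a library title.

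The tests used edgeR 4.0.16 under R 4.3.3: quasi-likelihood F tests (glmQLFit, robust, and glmQLFTest) with TMM factors, on genes kept by filterByExpr (count of at least 10, total of at least 15), with Benjamini-Hochberg adjusted p over all kept genes and a threshold of 0.05. Comparisons among repaired nerves used 12 libraries (15036 genes) and those with healthy tissues all 23 (15954 genes). SE is the log2 fold change over the root of F, and intervals are 95%. Ratios used a pseudocount of 0.5 counts and two-sided exact permutation tests. Likeness used log2 CPM with a prior count of 2. The members and lists were chosen with earlier results of these data known. The rule for named genes took the 3 members and, as identifiers have no symbols, the nearest 2 identifiers. Alternatives were DESeq2 1.42.0, RLE factors, no filter, TMM factors without muscle-enriched genes, 2 groups alone, 23 libraries, replicate blocks and leaving out each library. The scripts were tested on simulated data. The replicate numbers met the pairing check (every same-numbered correlation of deviations over 0.1) only for MIV and EV at day 7, with r = 0.224, 0.201 and 0.176. The numbers come from the library titles.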

Additional observations from a re-analysis of the deposited data

How the results depend on the processing

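The 3 genes gave 63 fold changes and 1647 values under alternatives, of which 1555 kept direction and call, 53 lost a call, 18 gained one and 21 changed sign. The 477 alternative values of the 54 ratios kept their side except 10 that changed sign. The cause of a change was not tested unless said. With DESeq2, the EV differences between days passed for Acta2 (1.48) and Tagln (1.88), as in the fit over 23 libraries (1.45 and 1.86). Tagln in MIV at day 3 against nerve passed with DESeq2 (-1.11), RLE factors (-1.11) and 2 groups alone (-1.07), and in EV at day 7 against nerve it turned to -0.0033 with DESeq2 and -0.0033 with RLE factors. Myh11 in MIV between days lost its call without the filter (2.72), with the replicate block (2.23) and with 2 groups alone (2.74). Without the filter, Myh11 in EV at day 3 (-1.39) and Tagln in MIV at day 7 (-1.19), both against nerve, lost theirs. TMM factors without muscle-enriched genes turned Acta2 in MIV at day 7 against nerve to 0.094 and ended the calls of Tagln there (-1.06), of Acta2 against muscle in EV at day 3 (0.75) and MIV at day 7 (1.03), and of Acta2 between muscle and nerve (-0.93). They moved the median of all genes by 0.12 for MIV at day 7 against nerve, by 0.33 for muscle against nerve and by -0.28 to -0.21 for the repaired groups against muscle. A replicate block over 23 libraries turned Myh11 in MIV at day 7 against nerve to -0.055 and ended the calls of Tagln there (-1.22) and of Acta2 in EV at day 3 against muscle (0.94). With 2 groups alone, which have fewer samples, Tagln in MIV at day 7 against nerve (-1.16) and Acta2 against muscle in EV at day 3 (1.16) and MIV at day 7 (1.37) lost their calls, and Myh11 between muscle and nerve gained one (-0.51).

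With 1 library left out, MIV against EV ranged from -0.021 to 0.92 for Acta2 at day 3, and over both days from -2.20 to -1.14 for Myh11 and -0.71 to 0.060 for Tagln. Between days in EV, Myh11 ranged from 3.03 to 3.61 and Tagln from 1.42 to 2.44. Between days in MIV, Acta2 ranged from -0.94 to 0.18, Myh11 from 1.07 to 3.19 and Tagln from -1.02 to 0.41. Against vein in MIV at day 7, Acta2 ranged from -5.30 to -4.20, Myh11 from -7.41 to -5.32 and Tagln from -5.48 to -4.18, all still called lower. Against nerve, Acta2 ranged from -0.17 to 0.33 in MIV at day 3, -0.75 to 0.16 in EV at day 3, -0.78 to 0.32 in MIV at day 7 and 1.08 to 1.36 in EV at day 7. Myh11 ranged from -1.65 to -1.09 in EV at day 3 and -1.39 to 0.69 in MIV at day 7. Tagln ranged from -1.57 to -0.87 in MIV at day 3, -2.12 to -0.81 in MIV at day 7 and -0.047 to 0.087 in EV at day 7. Against muscle, Acta2 ranged from 1.11 to 1.61 in MIV at day 3, 0.54 to 1.45 in EV at day 3 and 0.51 to 1.605 in MIV at day 7. Myh11 ranged from -1.11 to -0.47 in EV at day 3 and -0.85 to 1.23 in MIV at day 7. Tagln ranged from 1.21 to 1.91, 0.37 to 1.37 and 0.66 to 1.96 in MIV at day 3, EV at day 3 and MIV at day 7. The log2 ratio of Acta2 to Myh11 in MIV at day 7 against nerve ranged from -0.16 to 0.57. That of Tagln to Acta2 ranged from -0.26 to 0.00034, -0.17 to 0.090 and -0.16 to 0.14 against vein in MIV at day 3, MIV at day 7 and EV at day 7, from -0.16 to 0.13 for MIV against EV at day 7 and from -0.0074 to 0.18 between days in MIV.

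Counts of called genes depended more on the setting. DESeq2 made 814 calls of MIV against EV with both days joined and 3685 between days in MIV. The fit over 23 libraries called 160 at day 3, 1135 at day 7 and 975 over both days for MIV against EV, and 4533 in EV and 4153 in MIV between days. A replicate block over the 12 repaired libraries called 109 over both days, and 2 groups alone called 804 between days in MIV and 4353 in MIV at day 7 against vein. With 1 library left out, MIV against EV had 0 to 70 calls at day 3, 0 to 688 at day 7 and 0 to 698 over both days (0 when replicate 1 or 3 of EV was dropped at either day, 698 when replicate 2 of MIV was dropped at day 7), the change between days 0 to 3, and the differences between days 1390 to 4030 in EV and 804 to 3569 in MIV. The replicate block changed no call of the 3 genes beyond those named. At day 3 the same-numbered correlations were -0.0913, 0.239 and -0.0149, so the pairing check was not met there. The lowest count behind a level given here was 225, for Myh11 in MIV day 3 replicate 1.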
